A study of Mus musculus with 18 samples.

Results

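The genes described here are 31 genes of DNA replication and nucleotide synthesis, out of 18193 genes with a named probe set on the arrays. They were named by gene symbol from the probe annotation and not by a cut on their values. Earlier results of these data were known when they were chosen. Each was read from 1 probe set, the one with the highest mean over the sorted-cell arrays. All 31 were found. Of these, 30 passed the filter on low signal, which left out the 40% of genes with the lowest mean, and entered the tests across 10916 genes. The member left out is Tyms, thymidylate synthase, which makes the thymidine nucleotide; the probe set read for it, at a mean of 6.38, lay at percentile 30.1 of all genes. A further probe set, at a mean of 8.68 over the 17 sorted-cell arrays, is annotated to both Tyms and Tyms-ps and was not used, because it names 2 genes, so the values given for Tyms do not show how strongly the gene is expressed.

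The data are 18 Affymetrix arrays of mouse RNA. Cells of 3 mammary tumors, numbered 1, 2 and 7 in the labels, were sorted by the surface proteins CD29 and CD24 into CD29H CD24H, CD29H CD24L, CD29L CD24H and CD29L CD24L cells, with H for high and L for low staining, giving 1 array per tumor and population (n = 3 per population). Tumors 1 and 2 are labelled as transplantation generation 1, and tumor 7 has no generation in its label. As known from the study rather than from its labels, the tumors come from a Trp53-null mouse mammary model, and the CD29H CD24H cells are those that started tumors on transplantation. Normal mammary epithelial cells gave 2 arrays of CD29H CD24P cells and 2 of CD29P CD24H cells, with P for positive, from preparations 1 and 2, and 1 CD24L array from preparation 2. The last array held a purchased reference RNA. Strain, age and treatment are not given in the sources used here, nor is the number of animals behind a tumor or preparation, so the p-values rest on how much these particular arrays vary, which may be technical. All levels are log2(signal + 32), on which a difference of 1 is a 2-fold change; the added 32 makes the change of a dim gene look smaller than it is. Differences are given with the standard error from limma, a linear model fitted to every gene. Adjusted p-values are Benjamini-Hochberg values over all 10916 genes, and a gene is said to pass when that value is under 0.05.

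The arrays had equal trimmed mean signal and medians between 6.70 and 7.09. The 3'/5' signal ratio of actin, which rises when RNA is degraded or shortened during amplification, ran from 14.4 to 99.3 on the tumor arrays and from 3.1 to 24.7 on the normal ones. Markers bore out the normal epithelial gates. The 6 basal markers averaged 13.71 in CD29H CD24P and 7.62 in CD29P CD24H cells, and the 6 luminal markers 10.92 and 13.74. On the normal CD24L array the luminal markers averaged 7.42 and the 8 fibroblast markers 14.27, which is not what the label of epithelial cells describes. In tumors the fibroblast markers averaged 13.29 to 13.88 on the CD29H CD24L arrays and 9.33 to 12.10 on the others. These are bulk samples, in which fewer cells of a type and less RNA per cell cannot be told apart.

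A cell copies its genome once per division. Before S phase, ORC1, CDC6 and CDT1 load the ring of MCM2 to MCM7 onto origins, while geminin (Gmnn) blocks reloading. CDC7 kinase, MCM10, CDC45 and the GINS complex turn the ring into an active helicase. DNA polymerase alpha with primase starts each strand, replication factor C loads the sliding clamp PCNA, polymerases delta and epsilon extend, and FEN1 and DNA ligase I join the lagging-strand fragments. Ribonucleotide reductase, thymidylate synthase and thymidine kinase supply the deoxynucleotides. Many of these genes are known targets of E2F transcription factors, which the retinoblastoma protein restrains, and their transcripts are commonly used as a sign of cycling cells.

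Promoter windows of 250 bases before to 50 after the start were found for 24 members in the RefSeq table for GRCm38.p6. They were searched on both strands for 4 E2F-type strings of 8 bases, TTTGGCGC, TTTCCCGC, TTTGCCGC and TTTCGCGC, and matches could overlap. A match was present for 11 of the 24 members, which is 45.8%, against 2.6% of the 27025 genes with a window. By window, 11 of 29 held one (37.9%), against 2.26% of all 32851. The 11 members are Cdc6, Cdt1, Orc1, Mcm3, Mcm5, Mcm6, Mcm7, Pola1, Pold1, Rfc3 and Lig1. The 160 bases before the start are shown for Mcm2 (chr6:88898781-88898940, minus strand), Cdc6 (chr11:98907991-98908150, plus strand), Mcm6 (chr1:128359706-128359865, minus strand) and Pola1 (chrX:93632156-93632315, minus strand), members that the array results turn on. They are written 5′ to 3′ on the gene's strand, with matches to the 4 strings in capitals. The Mcm6 window holds 3 matches, of which the first pair overlap. Cdc6 and Pola1 hold 1 each, on the reverse strand, and none of these letters is in the Mcm2 window. A match is a description of the letters, not a shown binding site.
Mcm2: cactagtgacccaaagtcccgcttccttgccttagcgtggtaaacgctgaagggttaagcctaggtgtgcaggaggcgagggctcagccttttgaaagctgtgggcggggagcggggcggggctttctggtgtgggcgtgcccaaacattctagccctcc
Cdc6: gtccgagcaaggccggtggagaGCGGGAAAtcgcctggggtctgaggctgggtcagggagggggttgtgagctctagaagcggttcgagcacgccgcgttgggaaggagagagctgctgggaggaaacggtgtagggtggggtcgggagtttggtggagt
Mcm6: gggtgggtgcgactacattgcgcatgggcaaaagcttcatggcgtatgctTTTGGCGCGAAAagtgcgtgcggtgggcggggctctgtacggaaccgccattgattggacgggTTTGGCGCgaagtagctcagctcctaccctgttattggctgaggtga
Pola1: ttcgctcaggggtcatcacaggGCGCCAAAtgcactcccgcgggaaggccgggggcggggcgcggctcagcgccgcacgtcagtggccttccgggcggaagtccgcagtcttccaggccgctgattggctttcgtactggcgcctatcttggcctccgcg

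The question of the study's main comparison is what distinguishes the CD29H CD24H tumor cells from the other 3 populations of the same tumors. No replication gene passed the test in it, and neither did any other gene (0% of 10916). By size, 27 of the 30 tested members had a positive difference, with a median of 0.46, against 50.3% positive and a median of 0 over all genes. At an unadjusted p under 0.05 there were 10 members, 9 of them higher in CD29H CD24H cells, and 755 of all genes (6.92%). With the tumor as a block, 83 of all genes passed (0.76%), and again no member. In the blocked fit Mcm2 passed as higher and Fen1 as lower when the CD29L CD24L array of tumor 2 was left out. Fen1 also passed as lower without tumor 1, and its sign depended on the probe set, as given below. The shares of all genes passing in these leave-out fits are not given here, so the calls are not set against them. Without tumor 2's CD29H CD24H array the median of the members was 0.29. The mean level of the 31 genes was 10.17 to 10.83 on the CD29H CD24H arrays, 9.86 to 10.13 on CD29H CD24L, 9.90 to 10.30 on CD29L CD24H and 10.10 to 10.39 on CD29L CD24L. Tumor 7 gave the 10.17, which is below the highest arrays of the other populations, so the groups overlap.

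Mcm2, a subunit of the helicase ring, set the CD29H CD24H cells apart most clearly. Its level was 12.33 in tumor 1, 12.32 in tumor 2 and 12.24 in tumor 7. In CD29H CD24L cells it was 11.54, 11.21 and 11.22, in CD29L CD24H cells 11.57, 11.35 and 11.66, and in CD29L CD24L cells 11.72, 11.58 and 11.31, in the same order of tumors. All 3 CD29H CD24H arrays lay above all 9 others, with a gap of 0.53. The difference from the mean of the others was 0.84 ± 0.23 (adjusted p = 0.438, or 0.0581 with the tumor as a block), and 0.72, 0.94 and 0.85 in tumors 1, 2 and 7. The second Mcm2 probe set gave 0.85 ± 0.29 and was less even. On it the CD29H CD24H arrays read 10.71, 11.04 and 11.61 in tumors 1, 2 and 7, and the highest other tumor array read 10.62. Population took 88.8% of the sum of squares of Mcm2 over the 12 tumor arrays and the tumor 4.52%.

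**Figure D1:**
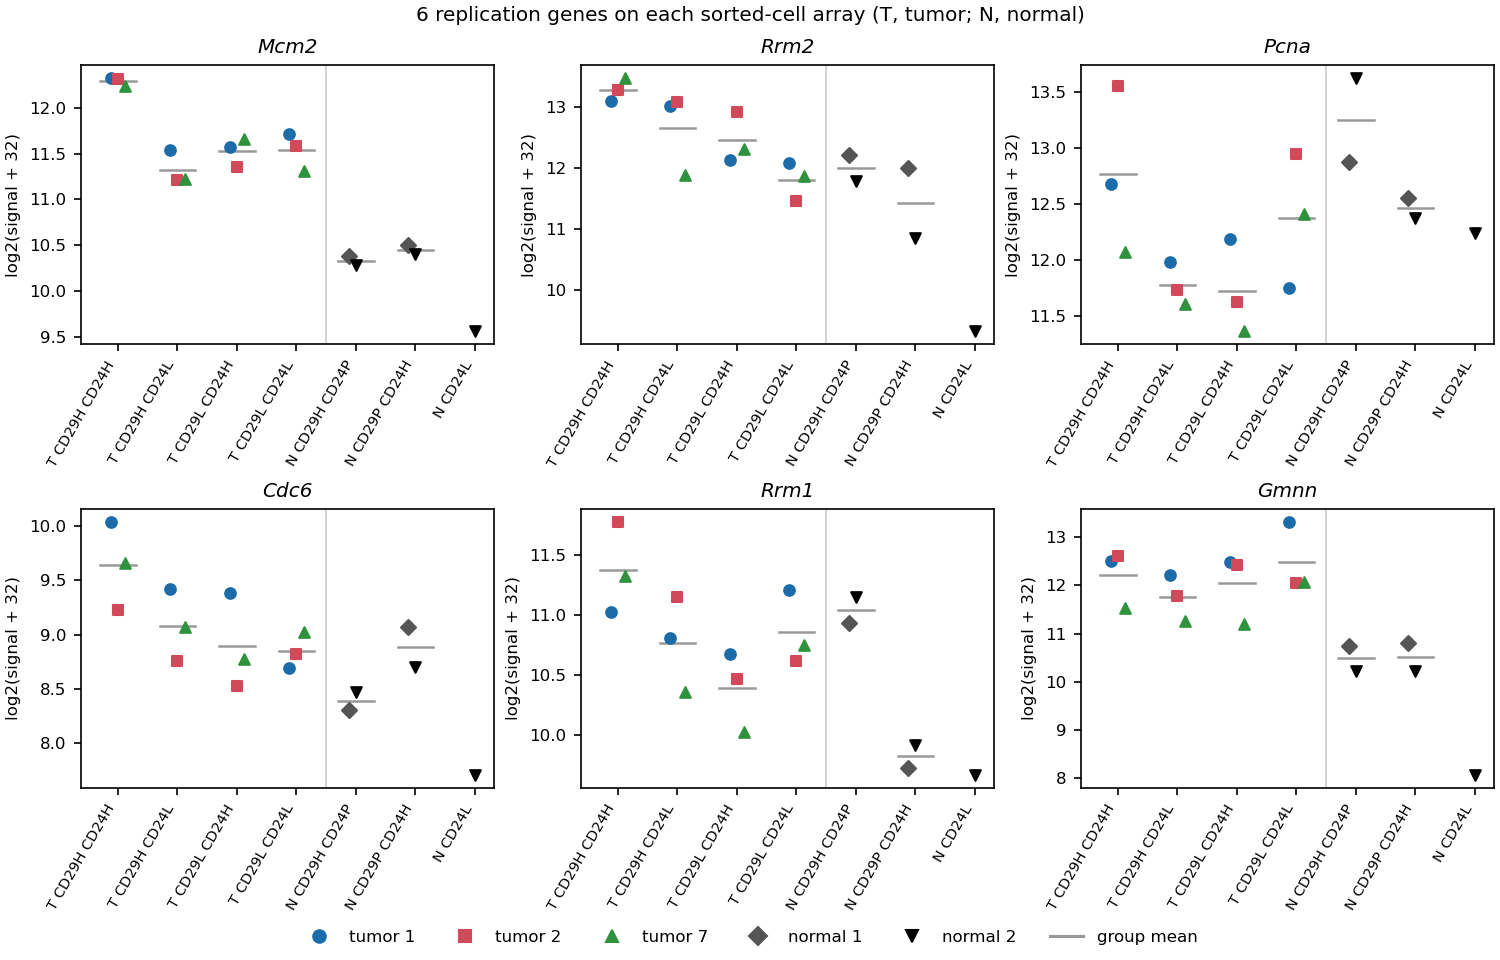
Levels of 6 replication genes on each sorted-cell array, as log2(signal + 32), by population (T, tumor; N, normal); each point is 1 array, its shape the tumor or normal preparation, and the line is the group mean. The 3 CD29H CD24H points of Mcm2 sit between 12.24 and 12.33, above the other 9 tumor points, and those of Pcna and Rrm1 overlap the other populations.

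Rrm2, the regulated small subunit of ribonucleotide reductase, was the other member without overlap, on the probe set used. It stood at 13.09, 13.28 and 13.47 in CD29H CD24H cells of tumors 1, 2 and 7. The CD29H CD24L values were 13.01, 13.08 and 11.88, those of CD29L CD24H cells 12.13, 12.91 and 12.30, and those of CD29L CD24L cells 12.08, 11.45 and 11.87. On the normal arrays it read 12.21 and 11.78 in CD29H CD24P, 12.00 and 10.85 in CD29P CD24H and 9.32 in CD24L cells. Within the tumors the gap to the highest other array was only 0.02, and it was the CD29H CD24L arrays of tumors 1 and 2 that came close. The difference was 0.98 ± 0.30 (adjusted p = 0.448, or 0.0892 with the block). The other Rrm2 probe sets gave 0.70 ± 0.30 and 0.61 ± 0.40, and on both of them the groups overlapped. On the first, tumor 2's CD29H CD24L array at 11.11 was above the CD29H CD24H arrays of tumors 1 and 2 at 10.75 and 10.64. Mcm2 and Rrm2 are 2 of 30 members; over all genes, 67 (0.614%) had all CD29H CD24H arrays above the other 9, and 60 (0.55%) had them below.

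Among the licensing genes, Cdc6, which loads the helicase, had levels of 10.04, 9.23 and 9.66 in CD29H CD24H cells of tumors 1, 2 and 7. Each was above the other 3 populations of the same tumor, whose highest values were 9.42, 8.82 and 9.07. Tumor 2's 9.23 was nevertheless below tumor 1's CD29H CD24L value, so the groups overlap. The difference was 0.70 ± 0.28 (adjusted p = 0.642 with limma). Cdt1 and Orc1 had differences of −0.18 ± 0.37 and −0.04 ± 0.39, and Gmnn of 0.13 ± 0.39. In these genes the tumors did not go the same way: Orc1 gave 0.91 in tumor 1 and −0.71 in tumor 7.

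All 6 subunits of the helicase ring had positive differences, from 0.27 ± 0.26 for Mcm5 to 0.84 ± 0.23 for Mcm2. The subunits did not share 1 pattern over the tumors. Mcm6 was close in all of them, at 0.63, 0.57 and 0.62 in tumors 1, 2 and 7, whereas Mcm4 gave 0.50, 0.06 and 1.28. Mcm3, Mcm5 and Mcm7 were negative in tumor 7, at −0.05, −0.22 and −0.05. All 5 helicase activators were positive as well, from 0.31 ± 0.25 for Cdc45 to 0.75 ± 0.34 for Mcm10. Cdc7, the kinase that starts origin firing, was even across tumors, at 0.54, 0.70 and 0.59.

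The polymerase genes followed. Pola1, the catalytic subunit of polymerase alpha, was at 10.27, 9.69 and 9.91 in CD29H CD24H cells of tumors 1, 2 and 7. Its difference was 0.84 ± 0.30 (adjusted p = 0.551), the third smallest p among members, and 0.83, 0.54 and 1.16 by tumor. Prim1, the small primase subunit, had 0.87 ± 0.33, led by tumor 2 at 1.61. Pold1 and Pole, the catalytic subunits of polymerases delta and epsilon, each had 0.36, with standard errors of 0.33 and 0.62. Pole differed more by tumor than by population, with 78.5% of its sum of squares between tumors. It lay between 9.56 and 10.37 on the 4 arrays of tumor 1 and between 7.82 and 8.20 on those of tumor 7.

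Pcna, the sliding clamp, stood at 12.68, 13.56 and 12.07 in CD29H CD24H cells of tumors 1, 2 and 7. The CD29H CD24L values were 11.98, 11.73 and 11.60 and the CD29L CD24H values 12.19, 11.62 and 11.36, while CD29L CD24L cells had 11.75, 12.95 and 12.41. Tumor 7's CD29L CD24L array was therefore above its CD29H CD24H array. The difference was 0.82 ± 0.35 (adjusted p = 0.687 with limma). Of the clamp loader genes, Rfc5 and Rfc4 had 0.89 ± 0.39 and 0.58 ± 0.37, positive in each tumor. Rfc2 and Rfc3 had 0.04 ± 0.29 and 0.28 ± 0.33, both negative in tumor 7, and Rfc2 was negative in tumor 1 as well. Rrm1, the large subunit of ribonucleotide reductase, was at 11.03, 11.78 and 11.33 in CD29H CD24H cells, with a difference of 0.70 ± 0.29. Tk1, the thymidine salvage kinase of S phase, gave 0.51, 1.35 and −0.65 in tumors 1, 2 and 7. The probe set used for Tyms read 6.50, 6.62 and 6.78 in CD29H CD24H cells, 6.51, 6.81 and 6.26 in CD29H CD24L, 6.98, 6.37 and 5.25 in CD29L CD24H and 5.23, 6.47 and 6.94 in CD29L CD24L cells. On the normal arrays it read 5.74 to 7.15 and on the reference RNA 6.37. At this low signal no order was read from it, and the limit given above holds for all these values.

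**Figure D2:**
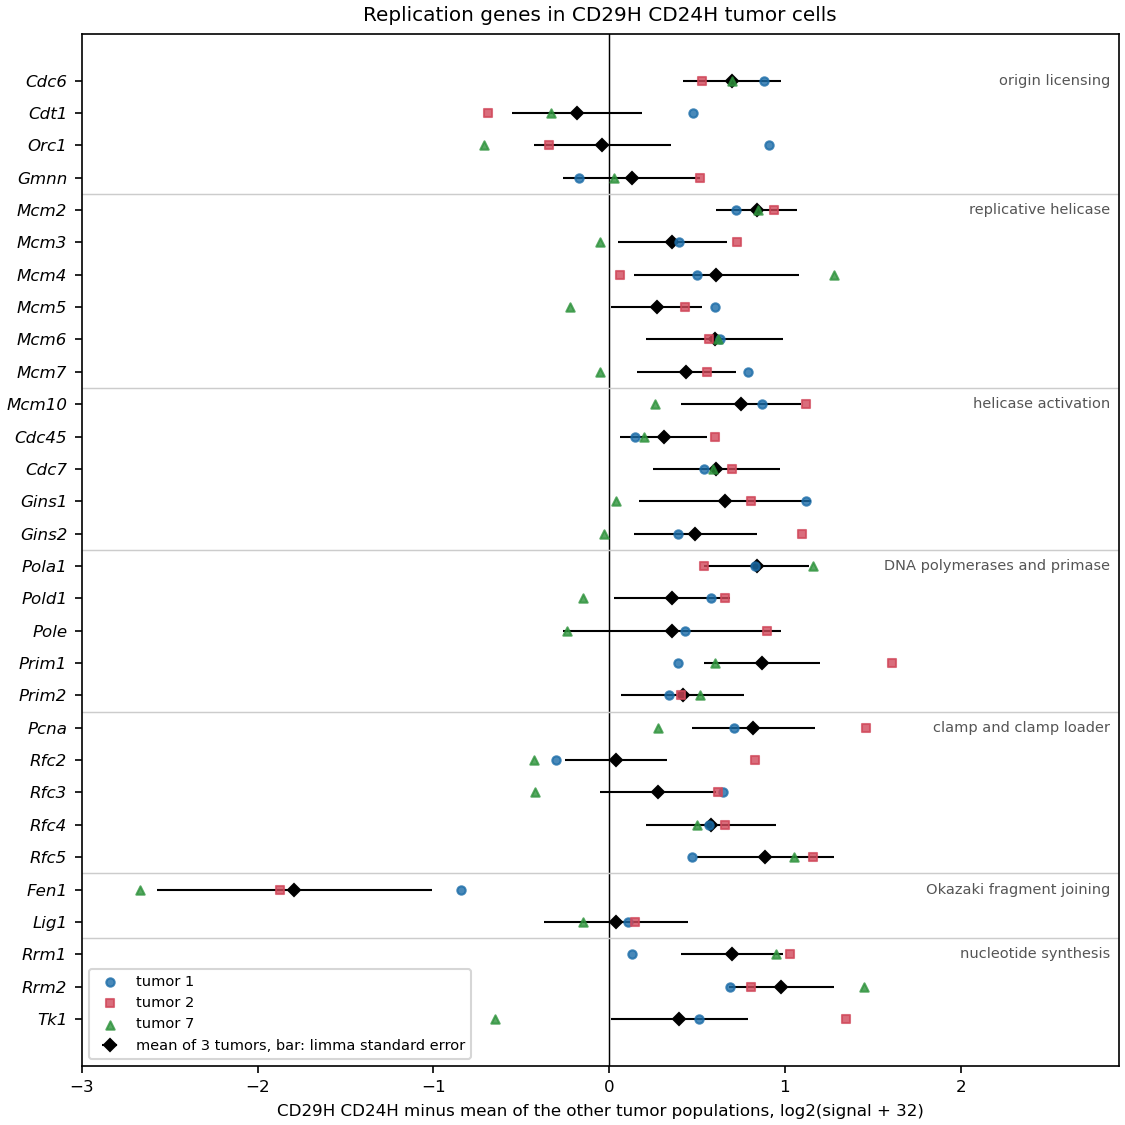
Difference of each tested replication gene between CD29H CD24H cells and the mean of the other 3 tumor populations, in log2(signal + 32), grouped by role; coloured points are the 3 tumors and the black diamond with its bar is the mean with the limma standard error. Most points lie right of 0, Mcm2, on the probe set used, is close to 0.84 in every tumor, and Fen1 lies far to the left at −1.79.

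Fen1, the flap nuclease of lagging-strand joining, had the most negative value of the 30, −1.79 ± 0.78 (adjusted p = 0.692), and the sign depended on the probe set. The brighter probe set, used by the rule, ranged from 12.39 to 16.61 over the tumor arrays. The dimmer one gave 0.13 ± 0.38. Of the 19 members with more than 1 tested probe set, 14 had probe sets of 1 sign and 5 did not, namely Cdc45, Cdc7, Cdt1, Fen1 and Orc1. Lig1, the ligase of this step, had a single value of 0.04 ± 0.41.

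**Figure D3:**
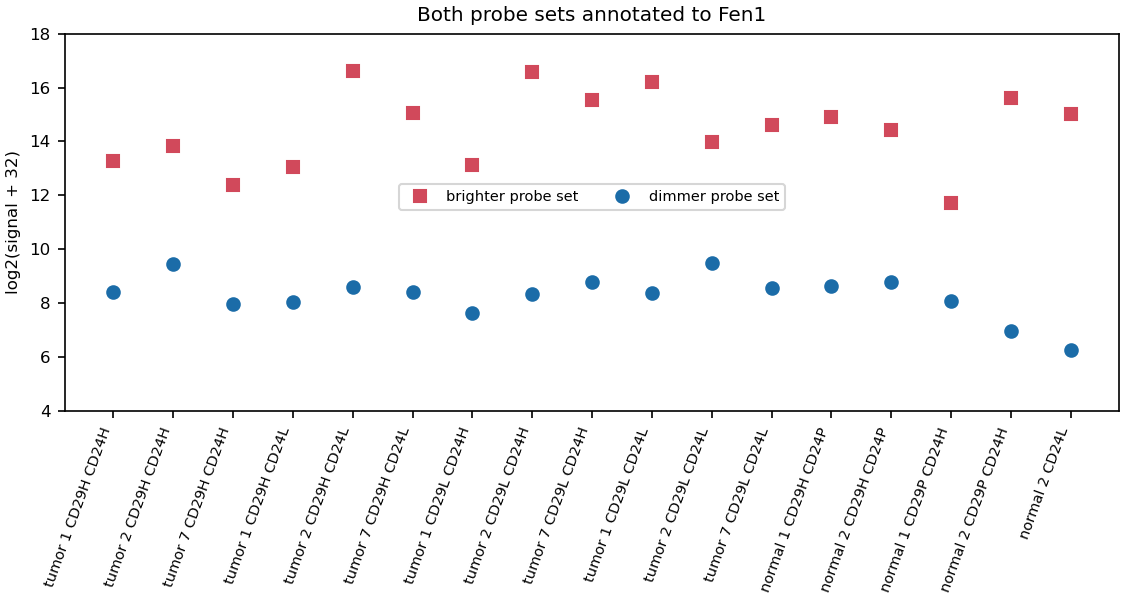
Level of both probe sets annotated to Fen1, as log2(signal + 32), on each of the 17 sorted-cell arrays. The brighter probe set (squares) moves over more than 4 units, down to 11.73 on the CD29P CD24H array of normal preparation 1, and the dimmer one (circles) has no such low on that array.

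The 3 tumors differed in how many members were higher in CD29H CD24H cells. Of all 31 members, 28 had a positive difference in tumor 1, 28 in tumor 2 and 18 in tumor 7, with medians of 0.51, 0.66 and 0.20. Over all genes those medians were 0.04, 0.09 and −0.11. In all 3 tumors the sign was positive for 17 members and negative for 1, Fen1, while 20.2% of all genes were positive in all 3 and 19.3% negative. The CD29H CD24H array of tumor 2 held the highest level of the 17 sorted-cell arrays for 9 members (29.0%, against 8.71% of all genes). In all, 19 members had their highest level on 1 of the 3 CD29H CD24H arrays (61.3%, against 20.4% of all genes). That array had the second lowest actin 3'/5' ratio of the tumor arrays, 23.2, and the lowest, 14.4, was the CD29L CD24L array of tumor 2. Without these 2 arrays the median of the tested members was 0.35, and no member passed. Over the 12 tumor arrays, population took a median of 31.3% of a member's sum of squares and the tumor 27.0%; over all genes tested these were 23.3% and 38.4%. No test of that difference was run.

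Each of the other populations was then compared with the CD29H CD24H cells in turn; these comparisons share the CD29H CD24H arrays. Against CD29H CD24L cells, 2.19% of all genes passed, all 239 of them lower in CD29H CD24H cells, and no member did. There 28 of 30 members were positive, with a median of 0.62 against 0.05 for all genes. With the tumor as a block, 4.97% of all genes passed (0.321% higher and 4.65% lower) and Mcm2 was the member among them, higher by 0.97 ± 0.25 (adjusted p = 0.0322 with limma). It was 0.79, 1.10 and 1.03 by tumor, and without the block its adjusted p was 0.132. Leaving out any 1 of the 6 arrays compared ended the blocked call, with adjusted p between 0.0733 (without tumor 1's CD29H CD24L array) and 0.161 (without tumor 2's CD29H CD24H array). Prim1 and Pcna followed, with 1.10 ± 0.41 and 1.00 ± 0.43 (adjusted p = 0.367 and 0.514 without the block). This is the comparison in which the fibroblast markers differ most. All 8 had lower means in CD29H CD24H cells, 5 of 8 passing without and 8 with the block, with a median of −3.22. Their part in the Mcm2 value was not tested.

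Against CD29L CD24H cells, 0% of all genes passed without the block, and 288 had an unadjusted p under 0.05. The members had a median of 0.48, against −0.03 for all genes, with 25 of 30 positive. Without tumor 2's CD29H CD24H array that median was 0.26. Pola1 had the smallest p, at 1.28 ± 0.37, followed by Mcm2 at 0.77 ± 0.28 and by Rrm1 at 0.98 ± 0.35, each with an adjusted p of 1. The other Rrm1 probe set gave −0.08 ± 0.32, and of the 19 members with more than 1 tested probe set, 10 had probe sets of 1 sign and 8 of opposite signs in this comparison. The fibroblast markers averaged 10.93 in CD29H CD24H and 12.10 in CD29L CD24H cells of tumor 2, and their part in these values was not tested. With the block 0.00916% of all genes passed and no member. Against CD29L CD24L cells, 0.0366% of all genes passed, and 23 of 30 members were positive, with a median of 0.27 against 0.01. Rrm2 at 1.48 ± 0.37 (adjusted p = 0.391), Mcm2 at 0.76 ± 0.28 (adjusted p = 0.659) and Rfc5 at 1.27 ± 0.48 (adjusted p = 0.670) had the smallest p. The 5 measured lymphocyte markers averaged 5.64 to 6.28 on the CD29H CD24H arrays and 7.38 to 8.78 on the CD29L CD24L arrays. Icos, a T-cell costimulator and the 1 of these past the filter, was lower in CD29H CD24H cells, at −5.08 ± 0.64 (adjusted p = 0.0172). Icos was also lower in the CD24 high cells below, at −2.61 ± 0.45 (adjusted p = 0.0310), and the part of lymphocytes in the members' values was not tested. In tumor 7 only 13 of the 31 members were positive in this comparison, against 25 each in tumors 1 and 2, and the tumor medians were 0.74, 0.41 and −0.25 for tumors 1, 2 and 7. Without tumor 2's CD29H CD24H array the median of the tested members was 0.06. With the block 0.531% of all genes passed, and no member.

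Split by gate, the CD29 high against the CD29 low populations had 17 of 30 members positive and a median of 0.07, close to the −0.01 of all genes. No gene passed (0%; 706 at an unadjusted p under 0.05), and Rrm2 at 0.85 ± 0.26 (adjusted p = 0.525), Pola1 at 0.71 ± 0.26 and Cdc6 at 0.49 ± 0.24 led. With the block 0.797% of all genes passed (0.605% higher and 0.192% lower), and no member. The CD24 high against the CD24 low populations had 26 of 30 members positive, with a median of 0.23 against 0.05, and 0.733% of all genes passed. Without tumor 2's CD29H CD24H array that median was 0.11. Mcm2 and Rrm2 had the smallest p, at 0.48 ± 0.19 and 0.64 ± 0.26 (adjusted p = 0.517 and 0.525). Rfc5, a clamp loader subunit, read 10.06, 10.68 and 9.58 in CD29H CD24H and 10.06, 9.68 and 8.96 in CD29L CD24H cells of tumors 1, 2 and 7. In CD29H CD24L cells it read 9.83, 9.38 and 8.50 and in CD29L CD24L cells 8.89, 9.50 and 8.14. Its CD24 difference was 0.80 ± 0.34 (adjusted p = 0.564). With the block, which takes out the low level of tumor 7, it was higher in the CD24 high cells at 0.80 ± 0.21 (adjusted p = 0.0486), among 3.83% of all genes (0.366% higher). That call was lost without any 1 of the 4 arrays of tumor 7, without tumor 1's CD29L CD24H or CD29L CD24L array, or without tumor 2's CD29H CD24H or CD29H CD24L array (adjusted p 0.0994 to 0.157). It was also lost without any 1 tumor (adjusted p 0.156, 0.161 and 0.293 without tumors 2, 1 and 7).

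The interaction asks whether the CD29 difference is the same in CD24 high and in CD24 low cells. For 26 of 30 members it was larger in CD24 high cells, and the median interaction was 0.85, against −0.03 for all genes. The probe sets often differed here: of the 19 members with more than 1 tested, 9 had opposite signs, namely Cdc45, Cdc7, Fen1, Mcm3, Mcm5, Orc1, Rfc3, Rrm1 and Rrm2. No gene passed (0%; 648 at an unadjusted p under 0.05), and with the block 1.92% did, none of them members. Pcna, Mcm2 and Cdc7 had the smallest p, at 1.65 ± 0.60 (adjusted p = 0.570), 0.98 ± 0.39 (adjusted p = 0.658) and 1.44 ± 0.62 (adjusted p = 0.783). With the block Cdc7 came to 1.44 ± 0.36 and an adjusted p of 0.0578; its other probe set gave −0.28 ± 0.51 without the block. Without tumor 2 the median was 0.46.

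In normal epithelium the populations were compared as CD29H CD24P, with basal markers, against CD29P CD24H, with luminal markers. Of all genes 28.7% passed (14.1% higher and 14.6% lower), and of the members 4 of 30: Rrm1, Mcm3 and Rfc2 were higher in CD29H CD24P cells and Mcm6 was lower. Over the 30, 21 were positive, with a median of 0.15 against −0.02 for all genes. Rrm1 read 10.94 and 11.15 in CD29H CD24P and 9.73 and 9.92 in CD29P CD24H cells of preparations 1 and 2. The groups did not overlap, and the difference was 1.22 ± 0.25 (adjusted p = 0.00538). Mcm3 read 10.12 and 10.45 against 9.20 and 9.33, a difference of 1.02 ± 0.26 (adjusted p = 0.0161). Rfc2 read 10.61 and 10.29 against 9.06 and 9.85, a difference of 1.00 ± 0.31 (adjusted p = 0.0423). Mcm6, which sits in the same ring as Mcm3, went the other way. It read 11.23 and 10.73 against 12.38 and 11.62, a difference of −1.02 ± 0.32 (adjusted p = 0.0394).

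On the 12 tumor arrays Rrm1 ranged from 10.03 to 11.78, Mcm3 from 9.17 to 10.41, Rfc2 from 9.20 to 10.55 and Mcm6 from 11.29 to 13.54. With the preparation as a block, Pcna passed too, at 0.79 ± 0.25 (adjusted p = 0.0281), and read 12.88 and 13.63 against 12.55 and 12.37. Then 31.5% of all genes passed, and 5 members. Mcm2 was 10.38 and 10.28 against 10.50 and 10.40, a difference of −0.12 ± 0.24, and Cdc6 8.31 and 8.47 against 9.07 and 8.70, a difference of −0.50 ± 0.27. Neither of these passed. With 2 arrays per population the calls rest on single arrays. Leaving out 1 of them leaves 1 array in its population, and the members that passed changed with the array left out. Counts from those fits are not given. Without the CD29P CD24H array of preparation 2 the median of the members was −0.13 in place of 0.15. The actin 3'/5' ratios were 7.1 and 3.1 for CD29H CD24P and 24.7 and 6.3 for CD29P CD24H, and their part in these differences was not tested.

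Tumors were set against normal cells with 1 mean per tumor (n = 3) and per preparation (n = 2), leaving out the normal CD24L array. Of all genes 7.61% passed (4.28% higher and 3.33% lower), and of the members 1 of 30, Mcm2, which was higher in tumors by 1.28 ± 0.26 (adjusted p = 0.0342). Its 12 tumor arrays, from 11.21 to 12.33, all lay above the 4 normal arrays at 10.28 to 10.50. The second Mcm2 probe set gave 1.08 ± 0.29 (adjusted p = 0.0632). The call was lost without tumor 1 (adjusted p = 0.0688), without preparation 1 (0.312) or without preparation 2 (0.372). Gmnn, the licensing inhibitor, came next at 1.62 ± 0.39 (adjusted p = 0.0518). It ranged over 11.20 to 13.32 on the tumor arrays and 10.22 to 10.81 on the normal ones, also without overlap. Without tumor 7 Gmnn passed as well. Of all genes, 448 (4.1%) had all 12 tumor arrays above the 4 normal ones.

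**Figure D4:**
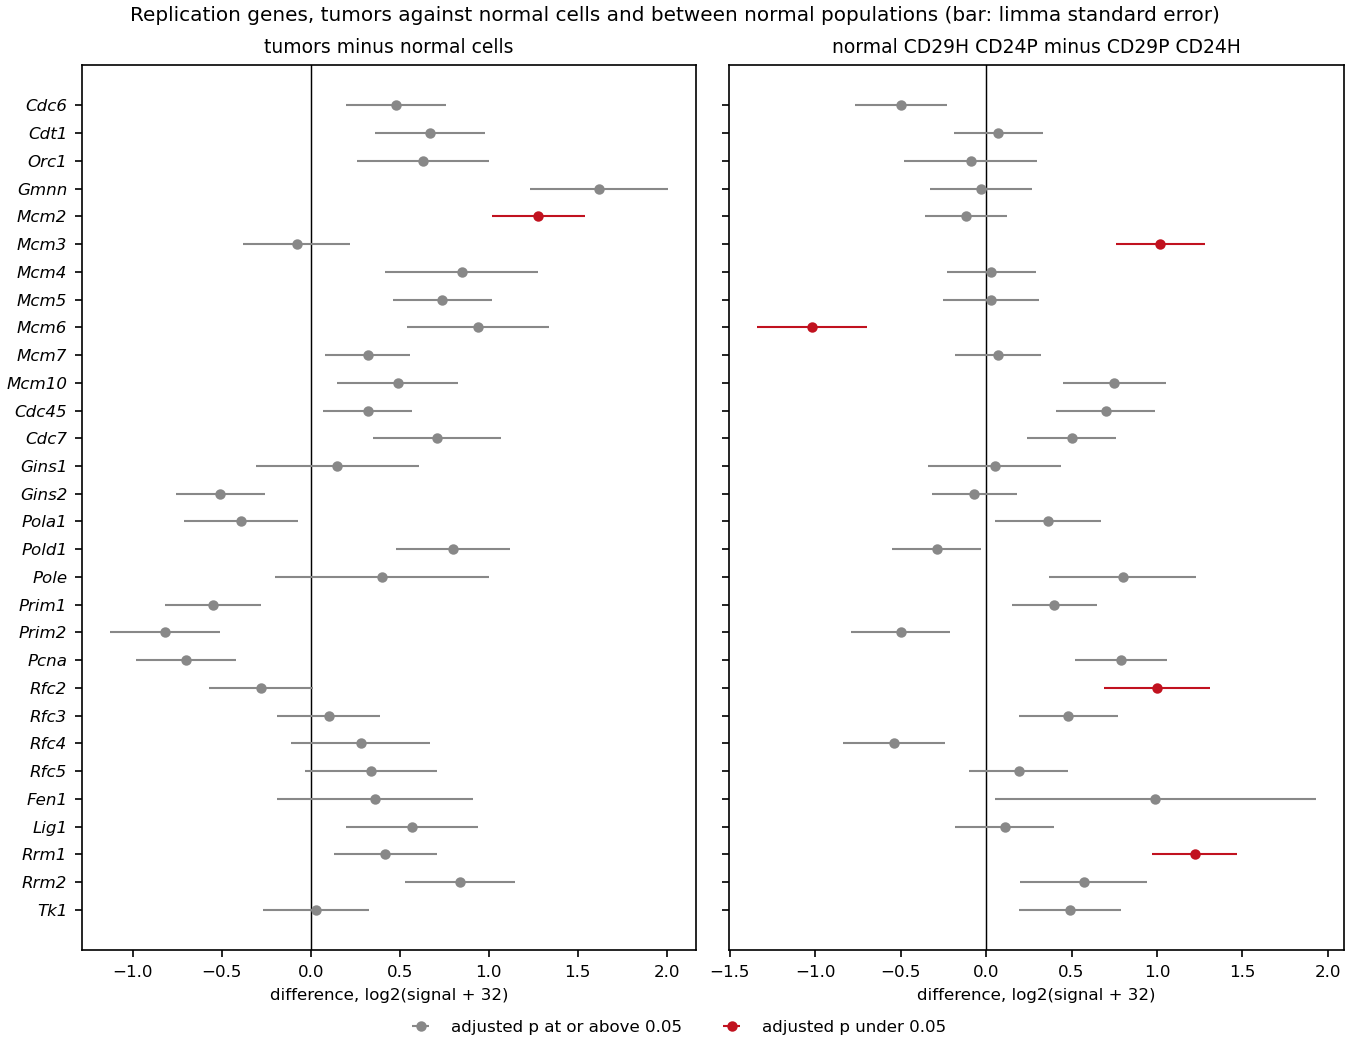
Differences of the 30 tested replication genes, in log2(signal + 32) with limma standard errors, between tumor and normal means (left) and between the normal CD29H CD24P and CD29P CD24H cells (right). Red marks an adjusted p under 0.05: Mcm2 on the left, and Rrm1, Mcm3, Rfc2 and Mcm6 on the right, where Mcm6 alone of these is below 0.

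Over the 30 members the tumor minus normal median was 0.38, against 0.02 for all genes, and 23 were positive. The 7 negative ones included Prim2, the large primase subunit, at −0.82 ± 0.31, Pcna at −0.70 ± 0.28 and Prim1 at −0.55 ± 0.27 (adjusted p = 0.148, 0.165 and 0.247). Pcna read 12.88 and 13.63 in normal CD29H CD24P cells, and 2 of the 12 tumor arrays, tumor 2's CD29H CD24H at 13.56 and CD29L CD24L at 12.95, exceeded the lower of these. In the same comparison 7 of the 8 fibroblast markers and 4 of 7 tested macrophage and leukocyte markers passed, all higher in the tumors, with medians of 3.12 and 2.16. The actin ratios above also differ between tumors and normal cells. The part of either in the Mcm2 value was not tested.

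Populations with like gates were compared as well. In CD29H CD24H tumor cells against normal CD29H CD24P cells, which share tumor and normal arrays with the comparison above, 5.1% of all genes passed (2.36% higher and 2.74% lower) and 1 of 30 members. Mcm2 was higher by 1.97 ± 0.32 (adjusted p = 0.0227), with 12.24 to 12.33 in the tumors and 10.28 to 10.38 in the normal cells. The call was lost without tumor 1's array (adjusted p = 0.0538) and without either normal array, which leaves 1 array in that group. Over the fits without 1 array the Mcm2 difference was 1.92 to 2.01. More members passed without tumor 7's array, and the share of all genes in that fit is not given here. Mcm6, Rrm2 and Gmnn followed at 1.91 ± 0.43, 1.29 ± 0.31 and 1.73 ± 0.45 (adjusted p = 0.0534, 0.0652 and 0.0744). The other Rrm2 probe sets gave 0.80 ± 0.39 and −0.62 ± 0.48. In CD29L CD24H tumor cells against normal CD29P CD24H cells 5.36% of all genes passed (2.67% higher and 2.68% lower) and no member, with 4 members and 2553 genes at an unadjusted p under 0.05 in limma. Gmnn at 1.52 ± 0.50, Mcm2 at 1.08 ± 0.36 and Prim2 at −1.34 ± 0.47 had the smallest p (adjusted p = 0.119, 0.129 and 0.141). Without tumor 7's array Gmnn passed there.

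The other genes of the pathway came from lists chosen by function. Of 40 tested other replication factors, 34 were positive in CD29H CD24H cells against the other tumor populations, with a median of 0.34. Of 31 other nucleotide synthesis enzymes it was 24 (median 0.25), of 21 E2F and G1/S regulators 16 (median 0.20), and of 19 mitosis genes all 19 (median 0.53). None of these genes passed. In tumors against normal cells 7.61% of all genes passed. There 2 of 39 replication factors passed, both higher. They were Uhrf1, which recruits the maintenance DNA methyltransferase, at 2.01 ± 0.43, and the histone chaperone Asf1b at 1.22 ± 0.26 (adjusted p = 0.0383 and 0.0391). Of the nucleotide enzymes, deoxycytidine kinase Dck at 2.26 ± 0.39 and mitochondrial folate enzyme Mthfd2 at 2.25 ± 0.38 were the 2 of 31 that were higher (adjusted p = 0.0216 and 0.0202). Nme1 and Prps1, a nucleoside diphosphate kinase and a phosphoribosyl pyrophosphate synthetase, were lower, at −2.39 ± 0.37 and −1.36 ± 0.26 (adjusted p = 0.0163 and 0.0272). Of 22 regulators 3 passed: E2f2 was higher by 2.69 ± 0.49 and Skp2, which targets the inhibitor p27 for degradation, and Cdkn1b, which encodes p27, both by 1.57, with standard errors of 0.35 and 0.30 (adjusted p = 0.0245, 0.0417 and 0.0271). Cdc20 was the 1 of 19 mitosis genes that passed, at 1.80 ± 0.43 (adjusted p = 0.0498).

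In the normal comparison 28.7% of all genes passed, or 31.5% with the preparation as a block. The counts of each list are read against these shares, and no difference from them was tested. Of 38 other replication factors, 3 were higher in CD29H CD24P cells and 1 lower. Pole2 at 1.14 ± 0.28 and Pold3 at −1.20 ± 0.27 were the largest (adjusted p = 0.0148 and 0.00967). Of 31 nucleotide enzymes, 4 were higher, led by Prps1 at 1.43 ± 0.26 and Mthfd1 at 1.32 ± 0.23, and 4 lower, led by Cmpk1 at −1.46 ± 0.26 and Rrm2b at −1.18 ± 0.27. Rrm2b encodes the small ribonucleotide reductase subunit used outside S phase, and Rrm1, its partner, was higher in the same cells. Of 21 E2F and G1/S regulators, 4 were higher, led by Tfdp2 at 1.55 ± 0.29 and Skp2 at 1.40 ± 0.27, and 2 lower, Rb1 at −1.08 ± 0.25 and Cdkn1a at −0.77 ± 0.24. Of 19 mitosis genes, Cenpa was higher at 1.34 ± 0.30. With the preparation as a block the regulators had 7 higher and 3 lower and the mitosis genes 3 higher. The adjusted p-values of these last genes lay between 0.00212 and 0.0434 with limma.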

How the data were processed

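Signal intensity on a linear scale was computed by the authors in GCOS (version unstated), according to the submitters' processing notes. RNA was isolated with a PicoPure kit and amplified in 2 cycles, per the labels' protocols. The deposited intensity values had a mean of 500.0 on every array after trimming 2% at each end. The design text says that the reference RNA normalized all samples; the way this was done is not described. Of 45101 probe sets, 34945 have 1 symbol in the platform annotation; those with several (932) or none (9160) were not used. The analysis scale was log2(value + 32). The fits used limma 3.58.1 under R 4.3.3 (eBayes with an intensity trend): 12 tumor arrays with 4 means, 5 normal arrays with 3 means, or the 5 means or arrays of a tumor and normal comparison. The tumor number pairs arrays, since each tumor was sorted into all 4 populations: deviations from group means correlated at 0.391 to 0.727 over the 18 same-tumor pairs and at −0.461 to −0.0546 over 36 pairs differing in tumor and population. The normal preparations gave 0.0629. No arrays were duplicates (highest correlation 0.984). Named with full statistics were members that passed, at most the 6 largest, or otherwise the 3 with the smallest p. Values on every tumor array and on the normal arrays compared were given for Mcm2, Rrm2 and Pcna. Part of the tumor values was given for Cdc6, and a range on the normal arrays for Tyms. For other members that passed, values were given on the arrays compared, with ranges elsewhere. For other lists the genes named are the 2 largest passing genes per direction. The exception is tumors against normal cells, where every passing E2F and G1/S regulator is named. The members, lists and rules were chosen with earlier results of these data known. The fits were also run on simulated data with every array drawn independently, so that check does not cover arrays that share a tumor or preparation. Alternatives are given in the closing section.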

Additional observations from a re-analysis of the deposited data

Results flagged for a closer look

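In 4 members, on the probe set used, the CD29 gate went one way in every tumor and the other way in both normal preparations. They are 13.3% of the 30 tested members; over all genes tested, 9.53% showed such opposite signs. The tumor value is CD29H CD24H minus CD29L CD24H, the normal value CD29H CD24P minus CD29P CD24H. Mcm2 was 0.76, 0.97 and 0.59 in tumors 1, 2 and 7 and −0.12 in each preparation, a difference between the gates of 0.89 ± 0.39 (adjusted p = 0.329 with limma on all 17 sorted-cell arrays, a test added after seeing the data). Mcm6 was 0.44, 0.43 and 0.59 against −1.15 and −0.89, a difference of 1.51 ± 0.72 (adjusted p = 0.404). On another Mcm6 probe set tumor 1 read 10.35 in CD29H CD24H and 10.49 in CD29L CD24H cells, so the pattern did not hold there. Cdc6 was 0.66, 0.70 and 0.87 against −0.76 and −0.23, a difference of 1.24 ± 0.50 (adjusted p = 0.270), and Rfc4 0.56, 0.46 and 0.78 against −0.46 and −0.61, a difference of 1.13 ± 0.68 (adjusted p = 0.545). None of the members passed; 272 of all 10916 genes did (2.49%). The gates carry different names in tumor and normal cells.

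On the reference RNA array, which enters no comparison, 15 of the 31 members were above all 17 sorted-cell arrays, which is 48.4%, against 13.8% of all genes, and the mean level of the members was 11.27. On the normal CD24L array, whose markers go against its label, 21 members had their lowest level (67.7%, against 12.8% of all genes) and the mean was 8.69. Tk1 read 10.59 on the reference and at most 9.55 elsewhere.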

How the results depend on the processing

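The number of arrays limits these results, as does the single probe set read per gene. Apart from probe sets tested singly, none of the alternatives changed the sign of a member's difference among the leading members followed in each comparison. Among single probe sets, Fen1 read 0.13 in place of −1.79 in the first comparison, Cdc7 −0.28 in the interaction, Rrm1 −0.08 against CD29L CD24H cells and Rrm2 −0.62 against normal CD29H CD24P cells. The median of the members did for the CD29 gate (−0.01 without tumor 1's CD29L CD24L or tumor 7's CD29L CD24H array) and in the normal comparison (−0.13 without the CD29P CD24H array of preparation 2). The alternatives were a smaller and a larger offset, quantile normalization, a median shift, no filter or 60% of genes left out, the mean of a gene's probe sets, probe sets tested singly, eBayes without the trend, a fixed or random block for the tumor, the actin ratio as a covariate, all 17 arrays in 1 fit, and leaving out arrays or tumors. The number of members passing against CD29H CD24L cells rose from 0 to 1 (Mcm2) with the replicate block, the random block and the 17-array fit. The block with the actin ratio gave 2 against CD29L CD24L cells (Rfc5 and Rrm2), and for the CD24 gate the block gave 1 (Rfc5) with and without that ratio. In the normal comparison the 4 calls became 2 with no filter or no trend, 1 with the mean of probe sets and 0 with all 17 arrays; leaving out 1 array gave 0 to 10. Tumors against normal had 1 call, 2 with the mean of probe sets (adding Gins2) and 3 with each probe set (adding Gins2, lower, and Gmnn). There were 0 with the CD24L array included, and the count changed on leaving out 1 tumor or preparation. CD29H CD24H against normal CD29H CD24P cells had 1 call, 4 with all 17 arrays (Cdc6, Gmnn, Mcm2, Mcm6) and 0 to 6 without 1 array. CD29L CD24H against normal CD29P CD24H cells had 0 and 1 with all 17 arrays (Mcm2), and the count changed without 1 array. In the tumor comparisons leaving out arrays gave 0 without the block and 0 to 2 with it. The shares of all genes passing under most of these settings are not given here, so the counts are not set against them. The cause of these changes was not tested.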
